A study of Mus musculus with 6 samples.

Results

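The MHC class I presentation genes are the 10 mouse genes H2-K1, H2-D1, B2m, Tap1, Tap2, Tapbp, Psmb8, Psmb9, Psmb10 and Nlrc5. They were listed by name and matched by gene symbol among the 32286 features of a single-cell RNA-sequencing study of injured mouse muscle. All 10 were found. MHC class I molecules display short peptides from proteins made inside the cell to CD8+ T cells. Peptides are cut by the proteasome, carried into the endoplasmic reticulum by the TAP transporter and loaded onto a heavy chain paired with beta-2-microglobulin. Interferons raise the whole pathway, in part by exchanging the catalytic subunits of the constitutive proteasome for those of the immunoproteasome, and in part through NLRC5, a transactivator of class I genes.

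All mice carried Cdh5-CreERT2:R26R-tdTomato, an inducible Cre driven by the endothelial Cdh5 promoter together with a red reporter, so the genotype was shared by both groups. The CLL group (3 mice) received intravenous liposomes with clodronate, which kills phagocytes that take them up, and the SHAM group (3 mice) received liposomes with PBS. The quadriceps was injured with cardiotoxin, a myotoxin; liposomes preceded the injury by 1 day and were repeated 2 days after it, and the muscle was dissociated on day 5. The labels describe the depletion as partial, so macrophages of the CLL group are those still present in treated muscle. Neither age and sex nor doses and a tamoxifen schedule are given by the labels. Each mouse gave 1 library, named below by group and replicate number.

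The libraries held 23873416 to 94841003 UMIs (unique molecular identifiers, each standing for 1 captured RNA molecule). After filters 46685 of 60282 cell barcodes were kept, between 1848 and 19346 per library, with medians of 879 to 13820 UMIs per cell. Libraries shared 0.10% to 1.06% of the barcodes of the smaller library. CLL replicate 2 and SHAM replicate 3 stood apart in that each had a large cluster of shallow cells (3704 and 4437 cells) that could not be named, so calls per class, differences between classes, ratios and shares of cells were repeated without both. Cells were clustered anew, because no deposited annotation was used, and a cluster was called "X-like" from marker genes. In the macrophage/monocyte-like class 13 of 14 listed markers were detected in at least 10% of cells, and the same held for 8 of 10 in the dendritic-like, 12 of 12 in the endothelial-like, 11 of 12 fibroblast markers in the fibroblast/tenocyte-like and 11 of 11 in the myogenic-like class. These 5 classes had at least 20 cells in every library and were tested. SHAM replicate 1 differed in other ways. It held 1997 of the 2014 cells of another unnamed cluster, led by mitochondrial genes. Its macrophage/monocyte-like cells had a median of 2678 UMIs, beside 14027.5 and 18441 in SHAM replicates 2 and 3. In CLL replicates 1 to 3 these medians were 9825, 4759 and 7067 UMIs.

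The genes sit mainly in the MHC region of chromosome 17 (GRCm38, GENCODE vM21). H2-K1 spans chr17:33996017-34000347 on the minus strand and H2-D1 spans chr17:35262730-35267499 on the plus strand. Tapbp lies at chr17:33915899-33929292. Psmb9 (chr17:34181987-34187764, minus strand), Tap1 (chr17:34187553-34197225), Psmb8 (chr17:34197721-34201454) and Tap2 (chr17:34203527-34216321) follow each other. B2m lies apart at chr2:122147686-122153083, and Psmb10 (chr8:105935735-105938444) and Nlrc5 (chr8:94434356-94527272) are on chromosome 8. All are protein-coding. RefSeq places the starts of Tap1 and Psmb9 225 bases apart on opposite strands. H2-K1 and H2-D1 are closely related genes, but no stretch of 90 bases among the 411 in the last 500 bases of either transcript was shared with another gene, which is where these reads begin.

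The promoters of the heavy chains and of B2m are known for the SXY module, on which NLRC5 acts, and for upstream NF-kB and interferon-stimulated response elements. Promoter sequences (RefSeq, GRCm38.p6) were in the table used for 8 of the 10 genes. They are shown for H2-K1, H2-D1 and B2m, the only ones of these with a match to the module letters given below. Psmb10, Tapbp, Psmb9, Tap1 and Psmb8 held no such match. Nor did these genes match the NF-kB-type or interferon-response-type letters used further below. Each line gives the strand of the gene, 5′ to 3′, with the letters TGACG and ATTGG of the module in capitals.
H2-K1 module, chr17:34000359-34000388, minus strand: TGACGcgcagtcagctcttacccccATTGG
H2-D1 module, chr17:35262993-35263022, plus strand: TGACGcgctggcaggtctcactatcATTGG
B2m module, chr2:122147609-122147638, plus strand: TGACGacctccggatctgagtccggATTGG
In all 3 the boxes were 20 bases apart, and they began 41, 101 and 78 bases upstream of the RefSeq start. H2-K1 and H2-D1 shared 23 of the 30 bases, H2-K1 and B2m 13, and H2-D1 and B2m 12. TGACG followed after 18 to 22 bases by ATTGG, on either strand, occurred in 0.247% of 32851 promoters (250 bases upstream of each start). Further upstream, both heavy chains held a match to the NF-kB-type letters GGGNNTTCC, followed by a match to the interferon-response-type letters GAANNGAAA on the other strand, both in capitals here.
H2-K1, chr17:34000429-34000458, minus strand: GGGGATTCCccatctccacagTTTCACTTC
H2-D1, chr17:35262923-35262952, plus strand: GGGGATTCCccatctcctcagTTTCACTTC
These windows shared 29 of 30 bases. GGGNNTTCC occurred in 4.98% and GAANNGAAA in 6.31% of promoters, both strands searched. The longer stretch upstream of H2-K1 shows how the boxes of both windows lie together, in capitals as above.
H2-K1, chr17:34000348-34000547, minus strand: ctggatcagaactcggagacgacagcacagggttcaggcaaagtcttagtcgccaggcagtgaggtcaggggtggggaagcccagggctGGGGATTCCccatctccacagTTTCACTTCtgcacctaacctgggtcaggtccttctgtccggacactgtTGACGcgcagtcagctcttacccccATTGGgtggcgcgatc
The letters were chosen after the sequences had been read, and a match is a description of letters, not a binding site. B2m held no match to the NF-kB-type or interferon-response-type letters as spelled here. Its upstream stretch did hold gaaactgaaa, which differs from the interferon-response-type letters by an added A after GAA. Other spellings of these elements were not searched over all promoters, so the missing match does not show that B2m lacks them.

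Levels are given as CPM, the UMIs of a gene per 1000000 UMIs of a class in a library. In SHAM muscle, among the 7 classes with at least 20 cells in every SHAM library, the macrophage/monocyte-like class had the highest mean H2-K1 level (1504 ± 60.0 CPM, SD, n = 3), above the dendritic-like class (1246 ± 142) and the endothelial-like class (964 ± 40.3), with no overlap between neighbours in that order. B2m had the same order, with 3067 ± 195 CPM in macrophage/monocyte-like, 2101 ± 60.3 in dendritic-like and 1789 ± 136 in endothelial-like cells, again without overlap. T/NK-like cells were left out of that order, with 17 cells in SHAM replicate 3. They had 1719, 2038 and 1844 CPM of H2-K1, above every macrophage/monocyte-like library, and 2192, 2549 and 2894 CPM of B2m, above every dendritic-like library. Within the order H2-D1 was also highest in macrophage/monocyte-like cells (2629 ± 513 CPM), but its range overlapped that of dendritic-like cells (2053 ± 318). Tapbp also had the order of H2-K1, at 209 ± 25.0 CPM in macrophage/monocyte-like, 181 ± 40.0 in dendritic-like and 143 ± 12.9 in endothelial-like cells. Its neighbours in that order overlapped. Some of the other processing genes had another order. Psmb8 was highest in dendritic-like cells (636 ± 75.7 CPM), where every library lay above the macrophage/monocyte-like class (277 ± 27.1 CPM). The same was true of Psmb9 (264 ± 26.9 against 107 ± 8.70 CPM) and of Tap1 (96.5 ± 4.34 against 50.7 ± 4.79 CPM). Psmb10 did not separate the dendritic-like (115 ± 7.51 CPM), endothelial-like (115 ± 1.37) and macrophage/monocyte-like (114 ± 12.1) classes. Of the 7 classes myogenic-like and fibroblast/tenocyte-like cells were the lowest for H2-K1, H2-D1 and B2m. Their H2-K1 means were 207 ± 51.8 and 287 ± 49.1 CPM, and their ranges overlapped. Myofibre-like cells, with 18 cells in SHAM replicate 3 and so not ranked, had 353, 192 and 124 CPM of H2-K1, over the range of both.

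**Figure D1:**
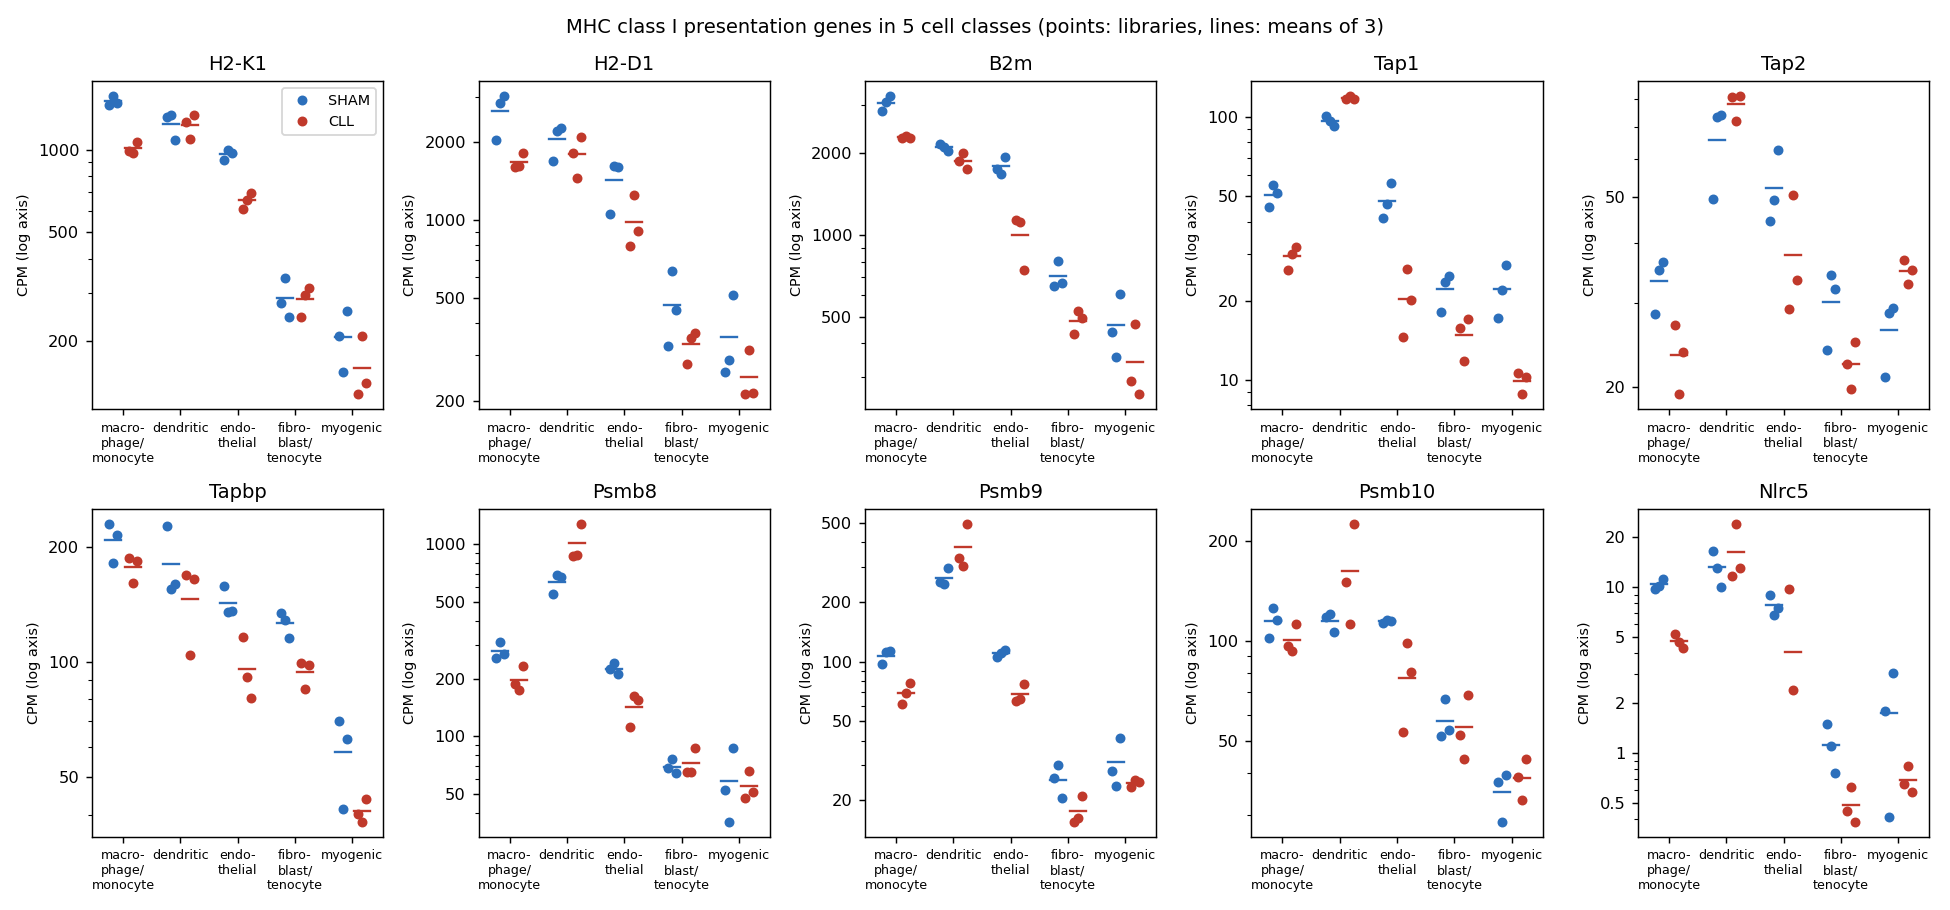
CPM (log axis) of the 10 genes in the 5 tested classes, 1 point per library, CLL and SHAM side by side. CLL replicate 3 held no Nlrc5 UMI in endothelial-like cells and has no point there; in macrophage/monocyte-like cells the CLL points lie below all SHAM points for 8 of the 10 genes.

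In macrophage/monocyte-like cells of CLL muscle, every gene of the set had a lower estimated level than in SHAM, and Tap1 and Nlrc5 fell. H2-K1 encodes one of the classical heavy chains that present peptide. It stood at 990, 977 and 1067 CPM in CLL replicates 1 to 3 and at 1461, 1573 and 1479 CPM in SHAM replicates 1 to 3. The groups did not overlap, and SHAM libraries were all close to each other. The log2 fold change was -0.58 ± 0.17 (SE), and edgeR's quasi-likelihood test with Benjamini-Hochberg adjustment over all genes gave an adjusted p of 0.0857. H2-D1, another classical heavy chain, had 1599, 1616 and 1817 CPM in CLL against 2047, 2821 and 3018 CPM in SHAM. Again no CLL library reached the lowest SHAM library, which was replicate 1 (log2 fold change -0.67 ± 0.22, edgeR adjusted p = 0.124). B2m, the light chain that every class I molecule needs, had 2281, 2312 and 2268 CPM in CLL and 2861, 3091 and 3250 CPM in SHAM. All CLL libraries lay together below the SHAM range (log2 fold change -0.43 ± 0.17, edgeR adjusted p = 0.203).

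Tap1 and Tap2 form the peptide transporter, and Tapbp encodes tapasin, which bridges it to the heavy chain. Tap1 had 26.3, 30.2 and 32.0 CPM in CLL macrophage/monocyte-like cells and 45.6, 55.1 and 51.3 CPM in SHAM. The ranges were well apart, and Tap1 fell by 0.78 ± 0.16 on the log2 scale (edgeR adjusted p = 0.0294). Tap2 had 26.9, 19.3 and 23.6 CPM in CLL and 28.4, 35.2 and 36.5 CPM in SHAM, which did not overlap but came close at replicate 1 of both groups (log2 fold change -0.49 ± 0.20, edgeR adjusted p = 0.213). Tapbp overlapped, at 187, 161 and 184 CPM in CLL and 230, 181 and 215 CPM in SHAM (log2 fold change -0.22 ± 0.14, edgeR adjusted p = 0.442).

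Psmb8, Psmb9 and Psmb10 encode the inducible catalytic subunits that replace Psmb5, Psmb6 and Psmb7 in the immunoproteasome. Psmb8 had 186, 174 and 231 CPM in CLL and 257, 308 and 267 CPM in SHAM, with no overlap (log2 fold change -0.50 ± 0.18, edgeR adjusted p = 0.175). Psmb9 had 60.9, 69.1 and 78.2 CPM in CLL and 97.0, 112 and 112 CPM in SHAM, also without overlap (log2 fold change -0.63 ± 0.16, edgeR adjusted p = 0.0612). Psmb10 differed least, with 96.7, 93.1 and 113 CPM in CLL and 102, 126 and 116 CPM in SHAM, and here the groups overlapped. Nlrc5, the transactivator of the class I promoters, was low: it had 5.23, 4.67 and 4.32 CPM in CLL, from 83 UMIs in all, and 9.69, 10.2 and 11.2 CPM in SHAM, from 336 UMIs. Every SHAM library lay above every CLL library, and Nlrc5 fell by 1.11 ± 0.21 on the log2 scale (edgeR adjusted p = 0.0220).

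Thus 2 of the 10 genes fell and none rose in macrophage/monocyte-like cells, where 3.5% of the 11300 genes tested passed and 2.27% passed as lower. In 8 of the 10 every CLL library lay below every SHAM library, which held for 11.8% of all genes. All 10 estimates were negative, with a median of -0.54 against -0.01 over all genes. None of the genes passed when CLL replicate 1, CLL replicate 2, CLL replicate 3, SHAM replicate 2 or SHAM replicate 3 was left out, or without both CLL replicate 2 and SHAM replicate 3, and 5 passed without SHAM replicate 1. With DESeq2, 5 genes fell, where 5.19% of genes passed and 3.27% passed as lower: H2-K1 (adjusted p = 0.00856), H2-D1, Tap1, Psmb9 and Nlrc5. Over 16 settings the log2 fold change of Tap1 ran from -0.92 to -0.65 and that of Nlrc5 from -1.23 to -1.0. The summed level of the 14 macrophage/monocyte markers also differed in this class, 24262 to 27698 CPM in CLL and 28347 to 33005 CPM in SHAM, none of them at 0; its part in the lower class I levels was not tested.

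**Figure D2:**
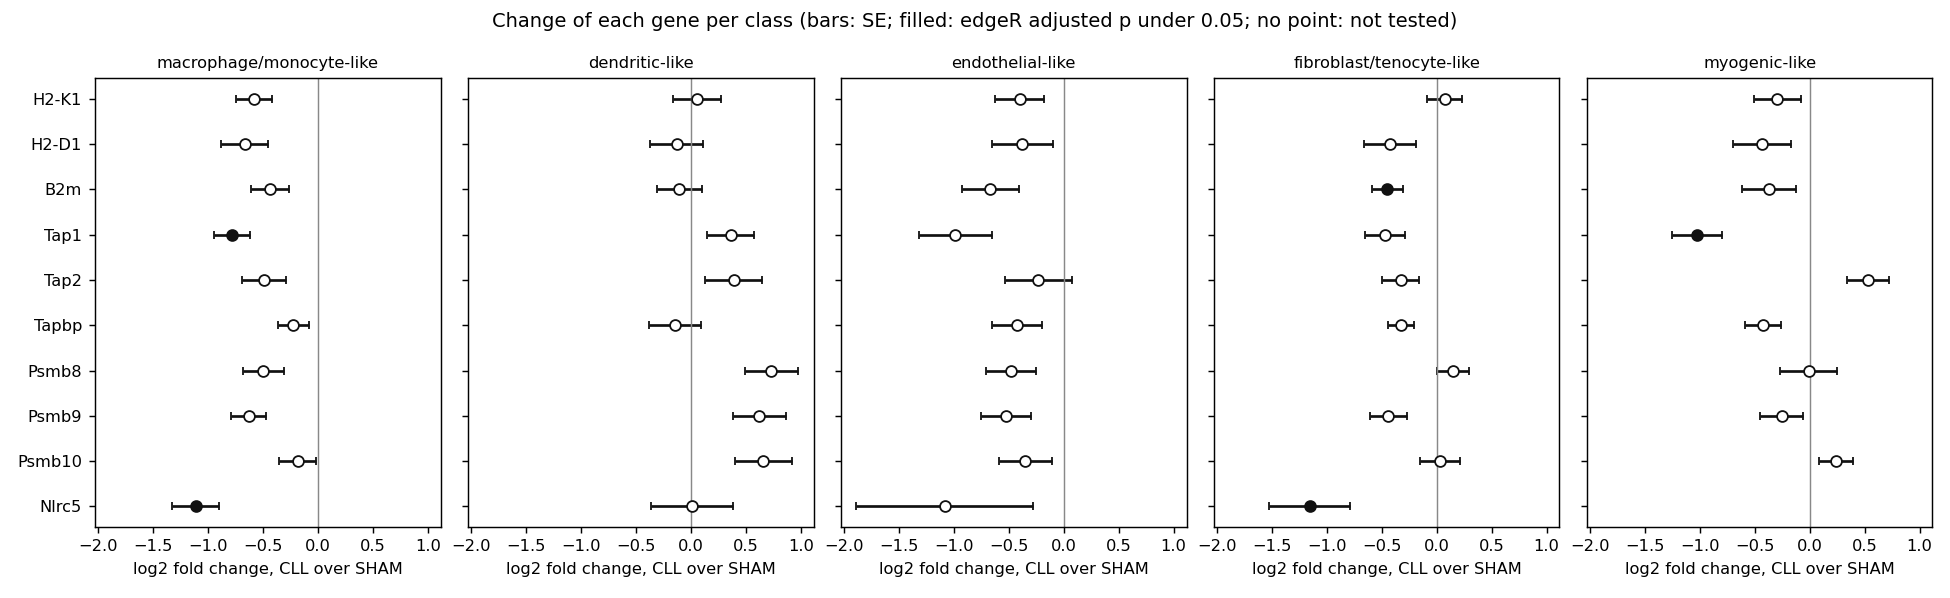
Log2 fold change (CLL against SHAM) of each gene in the 5 classes, with bars of 1 SE derived from edgeR's F statistic and filled symbols where the adjusted p passed 0.05. All 10 estimates are negative in macrophage/monocyte-like and endothelial-like cells, and those of Psmb8, Psmb9, Psmb10 and Tap1 are positive in dendritic-like cells.

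The macrophage/monocyte-like class held 3 clusters, and the lower levels appeared in each of them. In cluster c13, led by F13a1, Mrc1 and Ccl8, H2-K1 (log2 fold change -0.68, edgeR adjusted p = 0.0199), H2-D1 (-0.84, 0.0233), Tap1 (-0.98, 0.0120), Psmb8 (-0.72, 0.0173) and Psmb9 (-0.84, 0.00909) fell, 5 of 10 genes where 6.19% of all genes passed and 3.98% passed as lower. The c13 H2-K1 levels were 1021, 1041 and 1215 CPM in CLL and 1630, 1764 and 1718 CPM in SHAM. In cluster c11, led by Gpnmb and Trem2, and cluster c12, led by Il1b and Ccr2, no member passed edgeR's adjusted threshold, where 3.18% and 2.71% of genes did; 7 and 8 of the 10 members had an unadjusted p under 0.05, as had 17.9% and 14.8% of all genes. All 10 estimates were negative in both, with medians of -0.48 in c11 and -0.54 in c12, beside -0.70 in c13. CLL replicate 2 had 61.3% of its macrophage/monocyte-like cells in c13, while the group means for c13 were close (38.6% in CLL and 36.1% in SHAM).

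The ratio of summed Psmb8, Psmb9 and Psmb10 UMIs to summed Psmb5, Psmb6 and Psmb7 UMIs compares the inducible with the constitutive subunits inside a library and needs no scaling between libraries. In macrophage/monocyte-like cells its log2 was -0.58, -0.57 and -0.47 in CLL and 0.09, 0.48 and 0.23 in SHAM. The constitutive subunits outnumbered the inducible ones in every CLL library, and the reverse held in every SHAM library. The ratio was 0.687 ± 0.0295 (SD, n = 3) in CLL and 1.21 ± 0.168 in SHAM, a log2 difference of -0.81. The two-sided exact permutation test gave p = 0.10, the smallest that 3 against 3 allows, and 0.167 after adjustment over the 5 classes. Each subunit pair had the same order without overlap: Psmb8 to Psmb5 was 1.51 ± 0.281 in CLL and 2.96 ± 0.841 in SHAM, Psmb9 to Psmb6 was 0.232 ± 0.0335 and 0.448 ± 0.0347, and Psmb10 to Psmb7 was 1.02 ± 0.0573 and 1.46 ± 0.216. Of the constitutive subunits, Psmb5 had a log2 fold change of 0.45 in these cells (edgeR adjusted p = 0.0857), and none of the 3 passed. The difference was also present without overlap in c11 (0.50 against 0.884), c12 (1.00 against 1.62) and c13 (0.953 against 1.66).

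**Figure D3:**
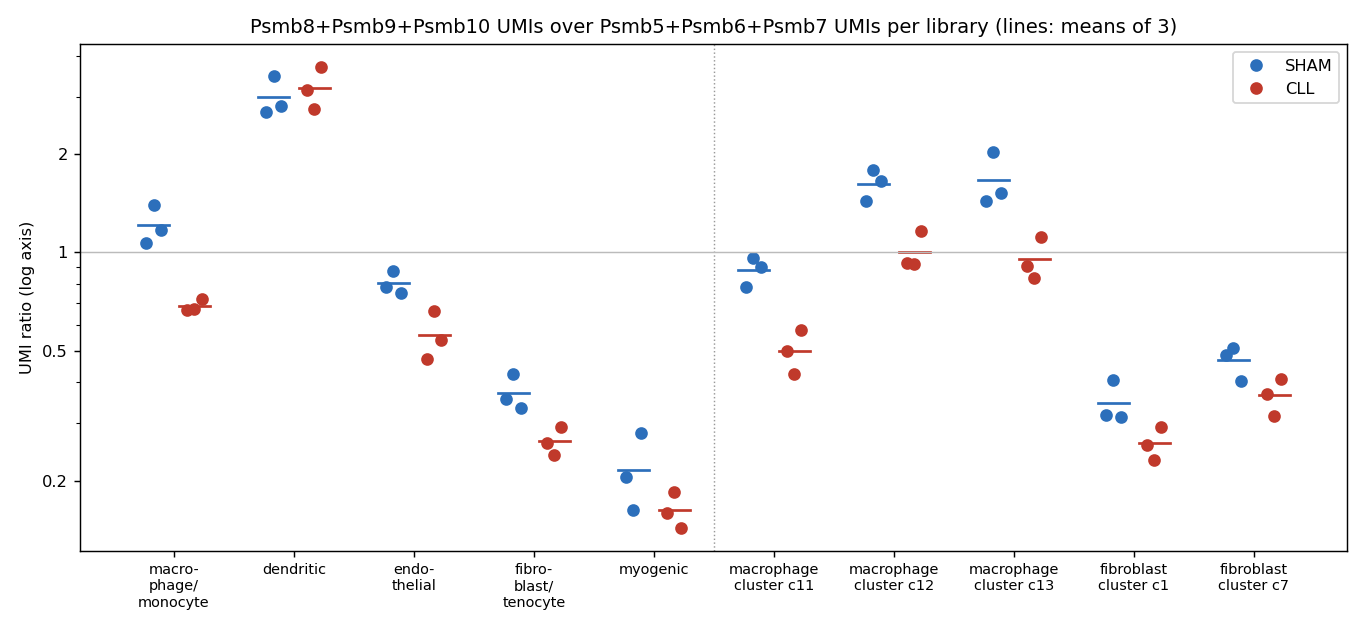
Ratio of inducible (Psmb8, Psmb9, Psmb10) to constitutive (Psmb5, Psmb6, Psmb7) catalytic subunit UMIs per library (log axis) in each class and in single clusters, with group means. In macrophage/monocyte-like cells the CLL mean is 0.687 and the SHAM mean 1.21, while in dendritic-like cells the groups overlap at means of 3.20 and 2.99.

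Among the other 11 class I heavy chains tested in macrophage/monocyte-like cells, 5 fell and none rose. H2-T23, which encodes Qa-1, had 103 ± 7.94 CPM in CLL and 248 ± 52.2 in SHAM (log2 fold change -1.27 ± 0.21, edgeR adjusted p = 0.0125). H2-Q7 (-1.13), H2-Q6 (-1.20) and H2-T22 (-0.99) fell too. H2-Q6 and H2-Q7 belong to a family of close copies, so their counts are uncertain. Of 15 interferon ligands, receptors and Stat or Irf factors, 5 fell and 1 rose. Irf7, an amplifier of type I interferon induction, had 41.7 ± 0.336 CPM in CLL and 149 ± 39.1 in SHAM (log2 fold change -1.86 ± 0.23, edgeR adjusted p = 0.00412). Irf1, which acts at class I and immunoproteasome promoters, had 37.1 ± 2.37 against 65.5 ± 7.06 CPM (-0.82 ± 0.12, edgeR adjusted p = 0.00865). Irf8 also fell (-0.83). Ifnb1, which encodes interferon beta, moved the other way: it rose to 98 ± 37.5 CPM in CLL from 13.5 ± 4.16 in SHAM (log2 fold change 2.91 ± 0.35, edgeR adjusted p = 0.00383). MHC class II genes fell in 7 of 8 cases. None of the 5 peptide loading genes, 3 proteasome activator genes, 3 constitutive catalytic subunits, 11 other core subunits or 10 SXY-box and NF-kB factors passed.

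In dendritic-like cells the processing genes Psmb8, Psmb9, Psmb10, Tap1 and Tap2 had positive estimates, and those of the heavy chains and B2m were near 0. No gene of the set passed edgeR's adjusted threshold there or in DESeq2, where 4.6% of 6897 genes passed with edgeR and 2.03% with DESeq2. Of the 10, 3 had an unadjusted p under 0.05 in edgeR, beside 19.2% of all genes. Psmb8 had 865, 881 and 1275 CPM in CLL and 550, 688 and 671 CPM in SHAM. Every CLL library lay above every SHAM library, most of all CLL replicate 3 (log2 fold change 0.73 ± 0.24, edgeR adjusted p = 0.104). Psmb9 had 331, 304 and 495 CPM in CLL and 252, 245 and 295 in SHAM, also without overlap (0.62 ± 0.24, edgeR adjusted p = 0.163). Tap1 had 117, 120 and 117 CPM in CLL and 101, 96.4 and 92.2 CPM in SHAM, a narrow gap (0.36 ± 0.22, edgeR adjusted p = 0.398). B2m was on the other side, with 1866, 2003 and 1751 CPM in CLL below 2161, 2101 and 2040 CPM in SHAM. These 4 genes were the members without overlap, and 20.8% of all genes had none in this class. Tap2 overlapped, at 81.0, 72.1 and 81.4 CPM in CLL and 49.4, 73.7 and 74.2 CPM in SHAM. So did Psmb10, at 150, 112 and 225 CPM in CLL and 118, 120 and 106 CPM in SHAM. H2-K1 was 1233 ± 125 CPM in CLL and 1246 ± 142 in SHAM (log2 fold change 0.06 ± 0.22), and the libraries were mixed. Among companion genes Psme2, a subunit of the proteasome activator PA28, rose (0.94 ± 0.23, edgeR adjusted p = 0.0262), as did the constitutive subunit Psmb5 (0.88 ± 0.23, edgeR adjusted p = 0.0390). The immunoproteasome ratio was 3.20 ± 0.479 in CLL and 2.99 ± 0.420 in SHAM (log2 difference 0.09, exact permutation p = 0.6).

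The difference between the CLL effects in the 2 classes was tested directly, with an edgeR interaction term and the library as a block. This pair of classes was added after the values above had been seen. For 5 of the 10 genes the log2 fold change was lower in macrophage/monocyte-like than in dendritic-like cells: Psmb8 by -1.26 ± 0.20 (adjusted p = 0.000584), Psmb9 by -1.29 ± 0.21 (0.00105), Tap1 by -1.18 ± 0.22 (0.00295), Tap2 by -0.92 ± 0.23 (0.0286) and Psmb10 by -0.85 ± 0.23 (0.0399). Among all 10454 genes 3.3% passed, and 1.61% as lower. H2-K1 (-0.67, adjusted p = 0.0770), H2-D1, B2m, Tapbp and Nlrc5 did not pass. Psmb8 and Psmb9 passed in all 11 settings run, which left out each library or both CLL replicate 2 and SHAM replicate 3, dropped the low-count filter or used 1 dendritic-like cluster. The count of genes was 2 without CLL replicate 1 and 3 without CLL replicate 3. It was 7 without both libraries, when H2-K1 and H2-D1 passed as well. These 2 genes each passed in 3 of the 11 settings. Over all settings H2-K1 ran from -1.15 to -0.061 (highest edgeR adjusted p = 0.963) and H2-D1 from -1.01 to -0.059 (0.964). For the other 3 pairs tested (macrophage/monocyte-like against endothelial-like, against fibroblast/tenocyte-like, and endothelial-like against fibroblast/tenocyte-like) no gene passed, where 0.368%, 2.83% and 1.01% of genes did. The nearest were Psmb8 (-0.60, edgeR adjusted p = 0.0513) and H2-K1 (-0.63, edgeR adjusted p = 0.0644) for macrophage/monocyte-like minus fibroblast/tenocyte-like cells.

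The dendritic-like class held 2 clusters whose shares differed between groups. Cluster c24, led by Ccr7, Ccl22 and Il12b, made up 35.9%, 68.4% and 38.2% of the class in CLL and 20.7%, 20.5% and 25.8% in SHAM; cluster c19, led by Cd209a, made up the rest. Psmb8 averaged 980 CPM in CLL and 645 in SHAM within c19, and 1105 against 665 within c24. H2-K1 went opposite ways, at 753 against 1090 CPM in c19 and 2144 against 1723 in c24. So did H2-D1, at 1288 against 1933 CPM in c19 and 2737 against 2481 in c24. B2m had 1242 against 1854 CPM in c19 and 3163 against 2994 in c24. The part of the cluster mix in the class estimates of these genes was not tested. Taken against c19 alone, Psmb8 (-1.09), Psmb9 (-1.15), Tap1 (-1.15), Tap2 (-0.96) and Psmb10 (-0.79) still passed, with 18 such cells in CLL replicate 2. Against c24 alone Psmb8 (-1.47) and Psmb9 (-1.74) did, with only 8 such cells in SHAM replicate 3. The 12 fibroblast markers summed to 1994 to 4126 CPM in CLL dendritic-like cells and 3714 to 10910 CPM in SHAM, and the 14 macrophage/monocyte markers to 772 to 1057 and 954 to 3710 CPM; their part was not tested.

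**Figure D4:**
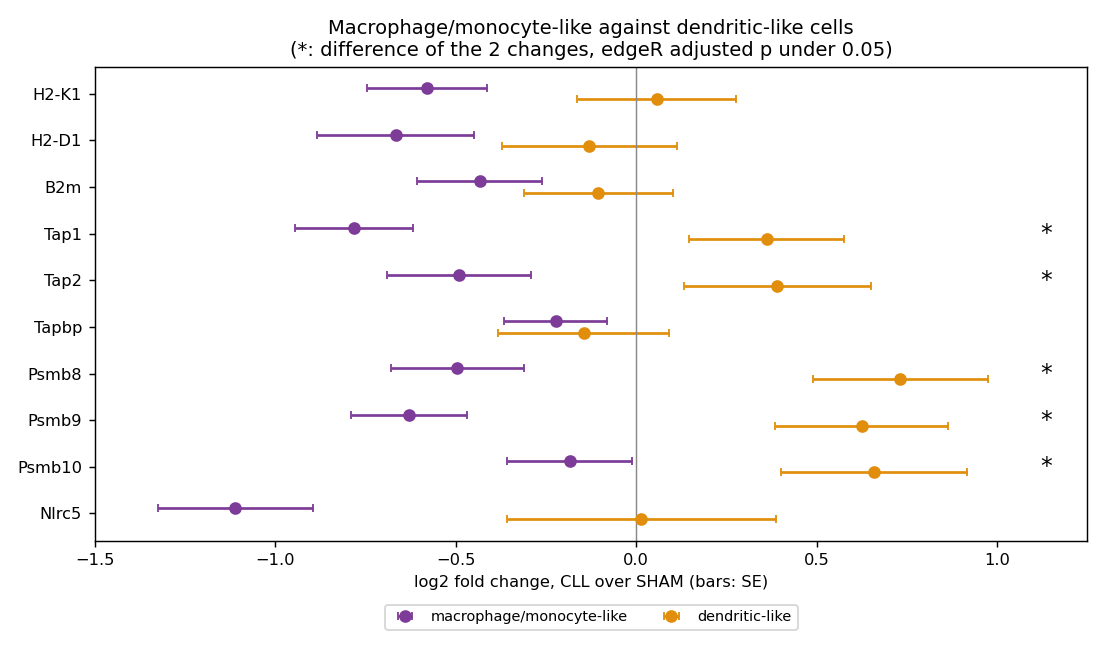
Log2 fold change (CLL against SHAM, with bars of 1 SE) of each gene in macrophage/monocyte-like and dendritic-like cells. The estimates for Psmb8 are -0.50 and 0.73, and those for Psmb9 are -0.63 and 0.62.

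Endothelial-like cells showed lower estimates throughout, without a call. No gene passed in edgeR or in DESeq2, where 0.424% of 9204 genes passed with edgeR and 0.754% with DESeq2. Of the 10, 3 had an unadjusted p under 0.05 in edgeR, beside 8.16% of all genes. Tap1 had 14.5, 26.5 and 20.1 CPM in CLL and 41.3, 46.7 and 56.0 CPM in SHAM, with a clear gap (log2 fold change -0.99 ± 0.34, edgeR adjusted p = 0.383). B2m had 1139, 1119 and 744 CPM in CLL and 1746, 1680 and 1941 CPM in SHAM, and CLL replicate 3 was lowest (-0.67 ± 0.26, edgeR adjusted p = 0.478). H2-K1 had 606, 657 and 697 CPM against 920, 998 and 975 CPM, again without overlap. All 10 estimates were negative, with a median of -0.45 beside 0.01 over all genes, and in 7 genes every CLL library lay below every SHAM library, as in 15.3% of all genes; the exceptions were H2-D1, Tap2 and Nlrc5. Nlrc5 rested on 3 UMIs in all CLL libraries together. The immunoproteasome ratio was 0.557 ± 0.0970 in CLL and 0.804 ± 0.0650 in SHAM, without overlap (exact permutation p = 0.10, the smallest possible). No companion gene passed.

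RNA of other cell types differed between the groups within the endothelial-like class. The 14 macrophage/monocyte markers summed to 202 to 581 CPM in CLL and 774 to 2085 CPM in SHAM, the 12 mural markers to 174 to 282 and 1294 to 1763 CPM, and the 10 dendritic markers to 147 to 154 and 232 to 376 CPM, none of these markers being at 0 throughout. The 8 tenocyte markers lay the other way without overlap, at 233 to 553 CPM in CLL and 127 to 214 CPM in SHAM. The 7 lymphatic endothelial markers overlapped and varied widely, at 24.1 to 2389 CPM in CLL and 45.5 to 347 CPM in SHAM. Cells with UMIs of 2 or more leukocyte markers (leukocyte-UMI cells) were then left out, a step added after the data had been seen. The log2 fold change was then -0.35 for H2-K1, -0.40 for B2m and -0.87 for Psmb8, and that of H2-D1 moved from -0.38 to 0.01. Before that step the CLL libraries held 41, 202 and 56 endothelial-like cells and the SHAM libraries 2512, 281 and 180. After it they held 26, 180 and 35 in CLL and 970, 135 and 21 in SHAM. The part of the smaller cell number in these values was not tested.

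In fibroblast/tenocyte-like cells B2m and Nlrc5 fell, 2 of 10 genes where 24.8% of 14417 genes passed and 13.3% passed as lower. B2m had 434, 528 and 494 CPM in CLL and 650, 800 and 664 CPM in SHAM, without overlap (log2 fold change -0.45 ± 0.14, edgeR adjusted p = 0.0423). Nlrc5 was near the limit of detection, at 0.449, 0.624 and 0.387 CPM in CLL (55 UMIs) and 1.49, 1.11 and 0.757 CPM in SHAM (38 UMIs), also without overlap (-1.16 ± 0.37, edgeR adjusted p = 0.0442). Tap1 and Tapbp were the other genes with every CLL library below SHAM, a pattern found in 28% of all genes. H2-K1 overlapped, with 246, 295 and 313 CPM in CLL and 276, 341 and 245 CPM in SHAM, and the estimates for Psmb8 (0.14 ± 0.14) and Psmb10 (0.03 ± 0.18) were near 0. No gene passed when CLL replicate 1, CLL replicate 2, CLL replicate 3 or SHAM replicate 2 was left out, and 4 passed without SHAM replicate 1. None passed either without the leukocyte-UMI cells, those with UMIs of 2 or more leukocyte markers. That step shrank the class strongly: between 27 and 1475 cells per library stayed, where 273 to 3077 had been tested. Whether the calls were lost through the smaller cell number was not tested. The 14 macrophage/monocyte markers summed to 181 to 229 CPM in CLL and 348 to 863 CPM in SHAM in this class.

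The make-up of this class changed as well, with cluster c1 at 71.8% of CLL and 30.5% of SHAM cells and cluster c7 at 3.63% and 53.2% on average. Within c1 and within c7 no member passed edgeR's adjusted threshold, where 8.23% and 1.45% of genes did, and 3 and 0 members had an unadjusted p under 0.05, beside 23.4% and 14.3% of all genes. The immunoproteasome ratio was 0.265 ± 0.0267 in CLL and 0.371 ± 0.0477 in SHAM, without overlap (log2 difference -0.48, exact permutation p = 0.10). Within c1 it was 0.26 against 0.346 without overlap, and within c7 it was 0.365 against 0.467 with overlap (exact permutation p = 0.2). Psmb9 to Psmb6 was 0.0756 ± 0.00336 against 0.149 ± 0.0272. Here the constitutive side rose by test: Psmb5 (0.53 ± 0.12, edgeR adjusted p = 0.00951), Psmb6 (0.53 ± 0.12, 0.0125) and Psmb7 (0.35 ± 0.11, 0.0363) passed, as did 8 of 11 other core subunits, all higher in CLL. Of the 5 peptide loading genes the chaperones Calr (0.58 ± 0.11, edgeR adjusted p = 0.00636) and Pdia3 (0.65 ± 0.17, 0.0190) rose. Of the 11 other heavy chains 4 fell, among them H2-T23 (-1.23 ± 0.20, edgeR adjusted p = 0.00267) and H2-Q4 (-1.36 ± 0.27, 0.00668). Of 14 interferon-related genes 7 fell, led by Stat2 (-0.95 ± 0.13, edgeR adjusted p = 0.00134), Socs1 (-1.0), Irf8 (-1.88) and Irf9 (-0.70). Nfkb1 (0.85) and Rfxap (0.58) rose among the 10 SXY-box and NF-kB factors, and 6 of 6 MHC class II genes fell.

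In myogenic-like cells, the muscle stem cell lineage, Tap1 was the gene that fell, 1 of 9 tested where 5.66% of 11704 genes passed and 3.42% passed as lower. It had 10.6, 8.84 and 10.3 CPM in CLL and 17.2, 22 and 27.3 CPM in SHAM, with CLL libraries close together and all lower (log2 fold change -1.03 ± 0.23, edgeR adjusted p = 0.0314). The call was lost without any of CLL replicates 1, 2 or 3 or SHAM replicates 2 or 3. Tap2 lay the other way without passing, at 36.9, 32.8 and 35.2 CPM in CLL and 20.9, 28.6 and 29.3 CPM in SHAM (0.53 ± 0.19, edgeR adjusted p = 0.131). These were the members without overlap, as in 27.8% of all genes. H2-K1 (159 ± 43.6 against 207 ± 51.8 CPM), H2-D1 and B2m overlapped. Nlrc5, at 13 and 25 UMIs in the groups, did not pass the low-count filter. Irf1 fell in these cells from 109 ± 12.2 to 36.1 ± 3.99 CPM (-1.51 ± 0.17, edgeR adjusted p = 0.00164). Macrophage/monocyte markers summed to 1486 to 3207 CPM in CLL and 1241 to 4755 CPM in SHAM in this class, and their part was not tested.

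Summed over all kept cells of a library, 7 of the 10 genes fell, where 36.6% of 16687 genes passed and 19% passed as lower. Nlrc5 had 1.52, 1.3 and 1.51 CPM in CLL and 5.88, 5.44 and 5.55 CPM in SHAM (log2 fold change -1.89 ± 0.16, edgeR adjusted p = 0.000196). B2m had 675, 734 and 739 CPM against 1573, 1575 and 1703 CPM (-1.11 ± 0.13, edgeR adjusted p = 0.000535). Each group was tight for both genes. H2-K1 (-0.95), H2-D1 (-1.23), Tap1 (-0.97), Tapbp (-0.49) and Psmb9 (-0.99) also fell, while Tap2, Psmb8 (edgeR adjusted p = 0.0584) and Psmb10 did not pass. All 10 genes had every CLL library below every SHAM library, as did 28.9% of all genes. In such sums fewer cells of a type and less RNA per cell cannot be told apart. The macrophage/monocyte-like class numbered 637, 551 and 1029 cells in CLL and 5769, 436 and 421 in SHAM. By replicate it made up 17.9%, 5.43% and 18.3% of the kept CLL cells, beside 29.8%, 23.6% and 6.83% for SHAM muscle. Fibroblast/tenocyte-like cells averaged 38.2% of a CLL library but 13.6% of a SHAM library. For endothelial-like cells these averages stood at 1.38% and 10.4%. Unnamed cells took up 81.6% of SHAM replicate 3 and 50.2% of CLL replicate 2. The part of these shares in the sums was not tested.

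The ratio of the classical heavy chains did not separate the groups. H2-K1 to H2-D1 was 0.604 ± 0.0160 in CLL and 0.587 ± 0.115 in SHAM macrophage/monocyte-like cells (log2 difference 0.06, exact permutation p = 0.7), and in no class did the exact permutation p reach below 0.2. In fibroblast/tenocyte-like cells it was 0.860 ± 0.0215 against 0.645 ± 0.179.

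When every cell was thinned to 1000 UMIs, a UMI of H2-K1 was found in 63.5%, 57.4% and 67.9% of CLL macrophage/monocyte-like cells and in 73.6%, 77.7% and 76.0% of SHAM cells. The groups did not overlap. Without thinning the means were 94.9% and 97.1%. H2-D1 was found in 76.6% on average in CLL and 87.9% in SHAM, B2m in 87.0% and 92.9%, and Psmb8 in 16.0% and 24.2%. In 8 of the 10 genes the mean share was lower in CLL, as in 50.7% of the 11300 genes tested in this class, and in 7 every CLL library lay below every SHAM library, as in 9.24%. Each of these had an exact permutation p of 0.10, the smallest possible, and 0.25 after adjustment over genes and classes. In this class 49 of 2217 CLL and 298 of 6626 SHAM cells were shallower and were left out. At the same depth H2-K1 was found in 5.8% of CLL and 25.8% of SHAM myofibre-like cells, and Psmb8 in 4.5% of the latter. Few myofibre-like cells were deep enough for this: 83 of 153 from CLL muscle, and 166 of 249 from SHAM muscle. SHAM replicate 3 gave 14 of them. The H2-K1 CPM of this class overlapped between the groups, and the difference in share was not tested. In dendritic-like cells Psmb8 was found in 55.1% and 46.2%, with overlap.

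**Figure D5:**
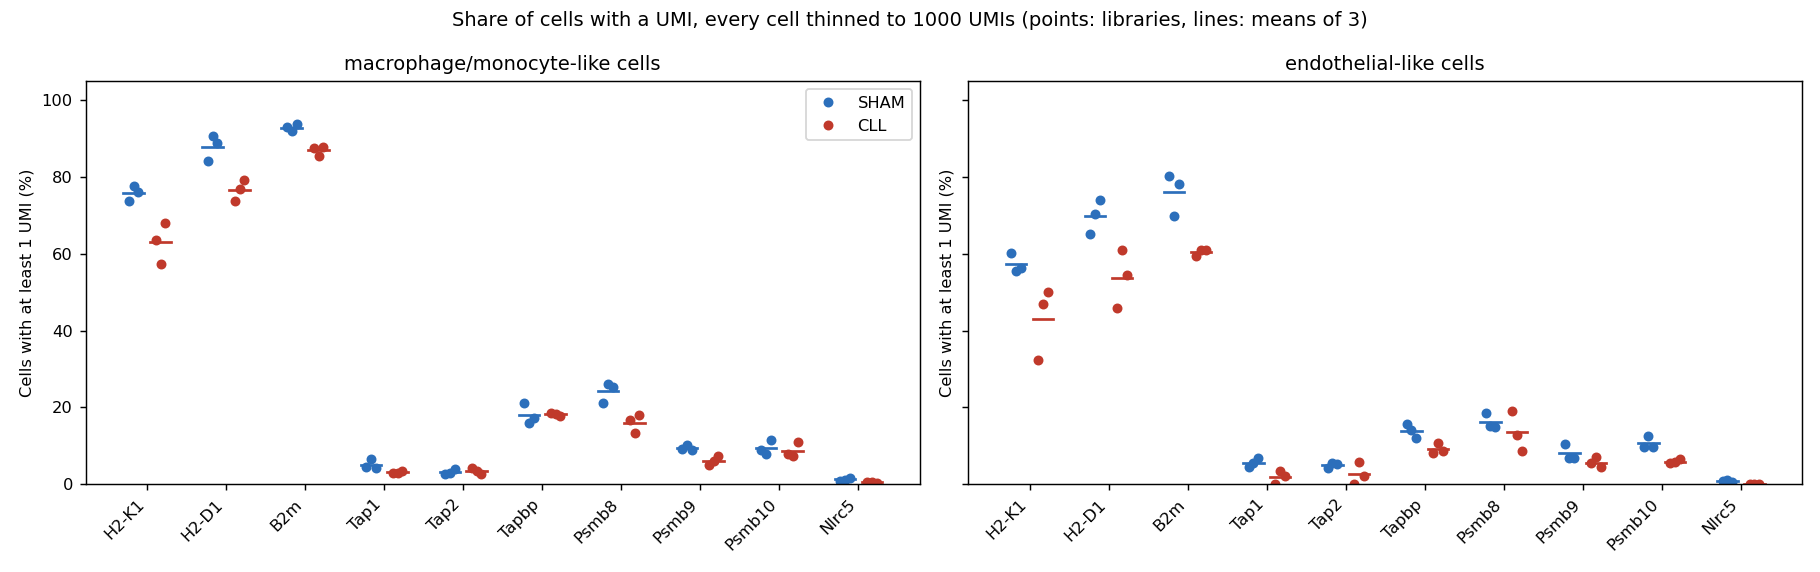
Percent of cells with at least 1 UMI of each gene after thinning to 1000 UMIs, per library, in macrophage/monocyte-like and endothelial-like cells, with group means. For H2-K1 in macrophage/monocyte-like cells the CLL points lie between 57.4% and 67.9% and the SHAM points between 73.6% and 77.7%.

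Some classes had too few cells in a library for a test, and their libraries are compared here only by whether they overlap. Each share over all genes is of those that passed the low-count filter in that class. The member counts take all 10 genes, whether or not they passed it, so the 2 are not of like sets. In mural-like cells, 90 in CLL and 1015 in SHAM, 6 of the 10 genes had every CLL library below every SHAM library, as had 10.7% of all genes. Among them Tap1 rested on 2 UMIs and Tap2 on 4 in all CLL libraries together. H2-K1 stood at 178, 101 and 148 CPM in CLL and at 381, 332 and 581 CPM in SHAM, and Tapbp, Psmb9, Psmb10 and Nlrc5 overlapped. In glial-like cells, 282 in CLL and 560 in SHAM, it was 6 of 10 beside 9.92%. Among them Nlrc5 rested on 1 UMI in all CLL libraries together. H2-D1 stood at 303, 223 and 419 CPM in CLL and at 782, 782 and 951 CPM in SHAM, while H2-K1 overlapped at 263, 122 and 335 against 545, 273 and 413 CPM. The count was 3 of 10 in myofibre-like cells (4.44% of all genes) and 2 of 10 in T/NK-like cells (5.92%), where H2-K1 overlapped. In myofibre-like cells Tap2 rested on 1 UMI and Psmb8 on 2 in all CLL libraries together. CLL replicate 2 held 5 T/NK-like cells and no Tap1 UMI in them. In adipocyte-like cells it was 0 of 10 (3.77%), and 1, Nlrc5, lay above SHAM, where it was at 0 (12.7% of all genes lay above); H2-K1 had 724, 1062 and 1101 CPM in CLL and 1054, 0 and 327 CPM in the 4, 4 and 2 SHAM cells. Neutrophil-like cells were absent from SHAM replicate 3 and were not compared.

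Over the 30 sums of 5 classes and 6 libraries, each gene was compared with the mean of the other members on the log2(CPM + 1) scale. Psmb8 followed it most closely (Pearson r = 0.950), and Tap2 (0.65) and Tapbp (0.777) least. Among 5668 other genes with a mean of at least 20 CPM the 8 most alike were H2-T23 (r = 0.976), Sp110 (0.957), Cd40 (0.951), Samhd1 (0.947), Phf11b (0.945), H2-Q7 (0.942), Mknk2 (0.941) and Ifngr1 (0.933). The points share libraries and classes, and the values are given as a description.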

How the data were processed

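Single-cell suspensions from 6 quadriceps, 3 CLL and 3 SHAM, were sequenced with the 10x 3′ v3.1 kit, per the labels. The authors deposited raw UMI counts per gene and barcode; the headers name Cell Ranger 6.1.2, and the submitters' processing notes name mm10. Barcodes with under 300 genes or over 15% mitochondrial UMIs were removed here. In each library the barcodes with the highest doublet scores were removed too, 7032 in all, by a quota of 0.8% per 1000 barcodes. The share removed (1.65% to 20.0% per library) thus followed from the number of barcodes and is not a measured doublet rate. Cells were clustered with scanpy 1.11.5 without the member and companion genes, and classes were named from marker lists by a rule set after the clusters had been seen. Counts were summed per class and library and tested with edgeR 4.0.16 (quasi-likelihood test, TMM, filterByExpr, Benjamini-Hochberg over all genes, threshold 0.05), with DESeq2 1.42.0 as an alternative. The SE of an edgeR log2 fold change was derived as its size divided by the square root of the test's F statistic. It is an approximation, and a rough one where the estimate is near 0. Levels are UMIs per 1000000 of the class sum (CPM). Ratios and shares were tested by exact permutation.

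The genes and lists were chosen with earlier results of these data known. All 10 genes are reported in every tested class; companion genes are named by smallest p, at most 4 per list, among those past the threshold in macrophage/monocyte-like, endothelial-like or fibroblast/tenocyte-like cells, and the companion genes named in other classes were chosen after their values were seen. On simulated counts for macrophage/monocyte-like cells (11118 genes) the test recovered 56.6% of 2-fold and 97.9% of 4-fold changes, and for endothelial-like cells (9027 genes) 24.0% and 80.0%. Same-number libraries deviated together only in endothelial-like cells (r = 0.139, 0.292 and 0.160), where the blocked fit called 84 genes instead of 39, no member among them.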

Additional observations from a re-analysis of the deposited data

Results flagged for a closer look

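For 5 of the 10 genes the CLL effect differed between macrophage/monocyte-like and dendritic-like cells in the edgeR interaction test, a pair of classes tested after the values had been seen. The difference of log2 fold changes was -1.26 for Psmb8, -1.29 for Psmb9, -1.18 for Tap1, -0.92 for Tap2 and -0.85 for Psmb10. In macrophage/monocyte-like cells the 3 CLL libraries lay below the 3 SHAM libraries for Psmb8, Psmb9, Tap1 and Tap2, and in dendritic-like cells they lay above them for Psmb8, Psmb9 and Tap1. The share of the Ccr7-expressing cluster c24 in the dendritic-like class was 47.5% in CLL and 22.3% in SHAM on average, and against cluster c19 alone, with 18 cells in CLL replicate 2, the same 5 genes passed. Against c24 alone, with 8 cells in SHAM replicate 3, Psmb8 and Psmb9 passed and Tap1 (adjusted p = 0.126), Tap2 (0.579) and Psmb10 (0.244) did not.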

How the results depend on the processing

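Of 866 single-gene values per class under other settings, 767 kept their direction and side of the threshold, 43 no longer passed, 22 newly passed and 34 changed sign; those 34 came from 12 results, none called, with log2 fold changes of at most 0.377 in size. The number of cells limits the tests, with as few as 31 in a tested library of dendritic-like cells and 41 of endothelial-like cells, and p-values rest on 3 mice a group. The cause of each change below was not tested.

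The count of members called in macrophage/monocyte-like cells, 2 as reported, was 5 with DESeq2, 4 without the low-count filter, 1 with the replicate block, 0 with unnamed clusters added, 0 without both CLL replicate 2 and SHAM replicate 3, and 0 to 5 when 1 library was left out. In fibroblast/tenocyte-like cells, 2 as reported, it was 1 with DESeq2, 0 without the filter, 0 with the replicate block, 1 without both libraries, 1 with doublets kept, 4 with unnamed clusters added, 0 without leukocyte-UMI cells and 0 to 4 with a library left out. In myogenic-like cells, 1 as reported, it was 2 without the filter, 0 with the replicate block, 0 without both libraries and 0 to 1 with a library left out; in dendritic-like cells it was 0 to 1. The replicate block left 7 calls in all kept cells and 4 of 5 in cluster c13, where H2-K1 no longer passed.

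Signs changed as follows. In dendritic-like cells the log2 fold change over left-out libraries ran from -0.13 to 0.024 for B2m, -0.28 to 0.082 for H2-D1, -0.028 to 0.25 for H2-K1, -0.051 to 0.18 for Nlrc5 and -0.24 to 0.049 for Tapbp; without both libraries it was 0.14 for H2-D1 and -0.094 for Nlrc5, and H2-K1 was -0.13 with doublets kept and -0.074 with member genes in the clustering. In endothelial-like cells H2-D1 was 0.0062 without leukocyte-UMI cells. In fibroblast/tenocyte-like cells H2-K1 was -0.033 without both libraries, -0.13 with doublets kept, -0.022 with unnamed clusters and -0.028 to 0.26 over left-out libraries; Psmb10 was -0.027, -0.0083 and -0.16 to 0.20 with doublets, unnamed clusters and libraries left out, and Psmb8 was -0.0037 to 0.26. In myogenic-like cells Psmb8 was 0.017 with DESeq2, 0.059 without the filter, 0.040 with the replicate block, 0.27 without both libraries, 0.062 with member genes in the clustering and -0.19 to 0.38 over left-out libraries; Psmb9 was 0.0043 without both libraries and -0.38 to 5.0e-05, and Psmb10 was -0.0048 with doublets kept.

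For differences between classes, dropping the filter gave 2 calls for macrophage/monocyte-like minus fibroblast/tenocyte-like and 1 for endothelial-like minus fibroblast/tenocyte-like cells, and turned B2m to -0.057, Tap2 to -0.077 and, for macrophage/monocyte-like minus endothelial-like cells, Psmb9 to -0.045. Without both libraries, a step added after the data had been seen, signs turned for H2-K1 (0.050), H2-D1 (0.17) and Tap2 (0.30) in macrophage/monocyte-like minus endothelial-like, for H2-D1 (0.0030) and Psmb9 (0.020) in macrophage/monocyte-like minus fibroblast/tenocyte-like, and for Tap2 (-0.42) and Nlrc5 (0.57) in endothelial-like minus fibroblast/tenocyte-like cells; none of these was called. Macrophage/monocyte-like minus dendritic-like, 5 calls as reported, gave 2 with cluster c24 only and 2 to 7 over left-out libraries; with c19 only B2m was 0.23 and Tapbp 0.014. The log2 immunoproteasome ratio difference in dendritic-like cells ran from -0.016 to 0.21. That of H2-K1 to H2-D1 ran from -0.12 to 0.15 in endothelial-like, -0.064 to 0.21 in macrophage/monocyte-like and -0.039 to 0.31 in myogenic-like cells; without both libraries it was 0.057, -0.065 and -0.065 in these classes and -0.048 in dendritic-like cells. The number of members with a lower share in dendritic-like cells, 3 as reported, was 5 at 500 UMIs and 3 to 6 over left-out libraries.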
